A study of Mus musculus with 16 samples.

Results

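The 10 genes described here are markers of monocytes and genes of their recruitment. They are 4 chemokine genes (Ccl2, Ccl7, Ccl6 and Ccl9), 2 chemokine receptor genes (Ccr2 and Cx3cr1) and 4 genes used as markers of monocytes and young macrophages (Ly6c2, Plac8, S100a4 and Chil3). They were taken by gene symbol from a deposited table of 40324 distinct symbols, and all 10 were found. Liver RNA came from 16 db/db mice, a leptin receptor mutant that develops obesity and diabetes. Littermates received an adeno-associated virus of serotype 8 (AAV8) at about 5 weeks of age, and liver was taken 5 weeks later, at 10 weeks. In 8 mice the vector encoded arcA and in 8 control mice it encoded GFP, the enhanced green fluorescent protein. All livers therefore carried the db/db genotype and an AAV8 vector, and no liver without vector was analysed here. A decrease in arcA livers and an increase in GFP livers therefore cannot be told apart. Below, genes said to have fallen or risen were lower or higher in arcA than in GFP livers. The labels state neither what arcA encodes, nor the promoter of the vector, nor the sex of the mice. In some bacteria, arcA encodes the enzyme arginine deiminase, but whether that gene was used here is not given. AAV8 reaches mainly hepatocytes in mouse liver.

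In mice, classical monocytes carry the surface protein Ly6C and the receptor CCR2, leave the bone marrow along gradients of CCL2 and CCL7, and enter injured or inflamed liver, where they can become macrophages. Non-classical monocytes have little Ly6C and much CX3CR1, the receptor of CX3CL1. In the obese liver this recruitment is known to add to the resident macrophages, the Kupffer cells. Several of these genes are not specific to monocytes: T and natural killer (NK) cells can express Ly6c2, Plac8, S100a4, Cx3cr1 and Ccr2, fibroblasts can express S100a4, and many liver cell types can make CCL2. In whole-liver RNA, fewer cells of a type and less RNA per cell cannot be told apart.

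Libraries held 37325610 to 45874797 counts in the arcA group and 28912563 to 53520828 in the GFP group. Levels are given as CPM, the read count of a gene scaled to TMM-adjusted library size, and fold changes are log2 values of arcA over GFP from edgeR's quasi-likelihood test, with p-values adjusted by Benjamini-Hochberg over the 14476 genes tested. In that test 951 genes were lower in arcA livers (6.57% of genes tested) and 617 were higher (4.26%), and the median log2 fold change of all tested genes was 0.0091. The split was 800 lower and 253 higher with scaling by library size alone, and 1117 lower and 45 higher with scaling on hepatocyte markers, which moved the median of all genes by -0.123. Gm42418, which overlaps ribosomal RNA sequence, took 2.45% to 7.37% of counts in arcA libraries and 2.29% to 19.4% in GFP libraries. The highest GFP shares were 11.8%, 18.1% and 19.4%, in GFP 2, 3 and 5.

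Of the 10 genes, 9 had enough counts to be tested. Of these, 7 were lower in arcA livers, where 6.57% of all tested genes were: Ccl2, Ccl6, Ccr2, Cx3cr1, Ly6c2, Plac8 and S100a4. None was higher, which for 9 genes is near the share of all tested genes (4.26%). The log2 fold changes of the 9 ran from -1.99 (S100a4) to -0.030 (Ccl9), with a median of -1.12. Chil3 and Ccl9 did not pass the test, and Ccl7 was too weakly counted to enter it. In 3 of the 9 genes (Ccl2, Plac8 and S100a4) every arcA liver lay below every GFP liver, a pattern found, in the lower direction, for 1.20% of all tested genes. In none did every arcA liver lie above every GFP liver (0.566% of all tested genes). The count of 7 lower genes was also found in fits without GFP 2, 3 and 5 and without arcA 3 and 8. With a minimum fold of 1.5 built into the test, the count was 2, and 0.843% of all tested genes were lower.

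**Figure D1:**
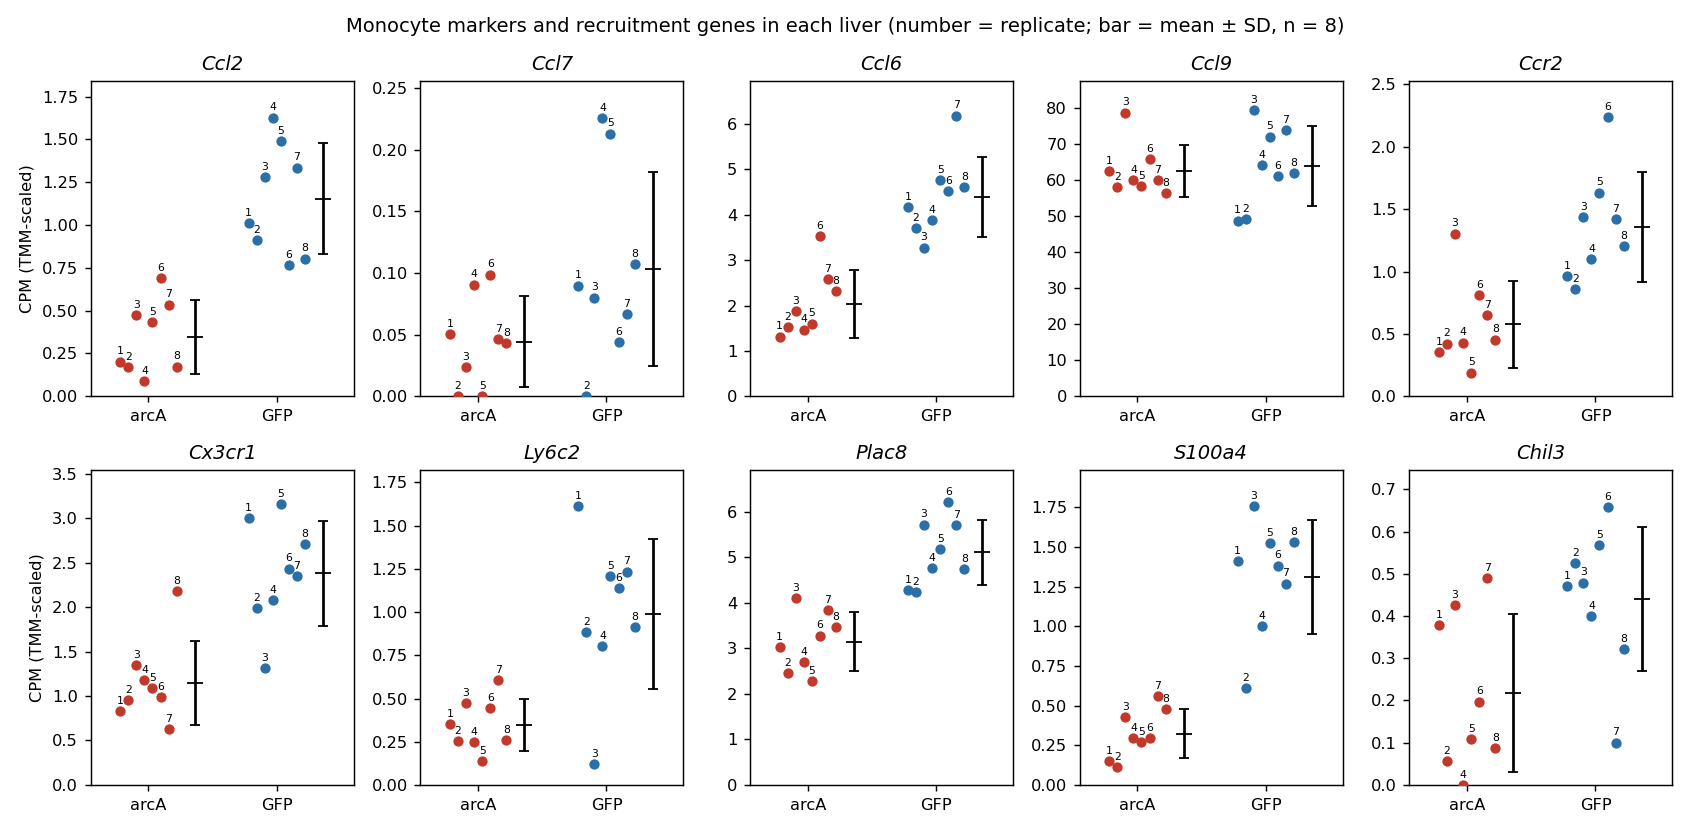
CPM of each of the 10 genes (y axis, TMM-scaled) in the 8 arcA livers (red, left) and the 8 GFP livers (blue, right), with the replicate number above each point and the mean ± SD beside each group. Ccl2, Plac8 and S100a4 show no overlap between groups, whereas the Ccl9 values of the groups lie over each other.

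The ligands come first. Ccl2 encodes the main ligand of CCR2 and lies on chromosome 11 (82035571 to 82037453, plus strand, GRCm38). In arcA livers it had 0.0905 CPM at the lowest, 0.318 at the median and 0.690 at the highest, against 0.768, 1.14 and 1.63 CPM in GFP livers. All 8 arcA livers were below the lowest GFP liver. It fell by 1.73 on the log2 scale (SE 0.323, edgeR adjusted p = 0.00191), 3.31-fold. The arcA livers also differed more among themselves: the coefficient of variation was 62.3% in arcA and 28.1% in GFP livers, where arcA counts were only 4 to 28 per library.

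Ccl7, another CCR2 ligand gene, lies at 82045712 to 82047525 on the same strand, with 8258 bases between it and Ccl2. It had 15 counts over the arcA group and 31 over the GFP group, with 0 to 4 counts per arcA library and 0 to 9 per GFP library. The 3 libraries with 0 counts were arcA 2, arcA 5 and GFP 2. There 0 counts allow a level of up to 0.0845, 0.0815 and 0.0830 CPM (3 counts, counting error only, each count taken as independent). Its mean was 0.0441 ± 0.0368 CPM in arcA and 0.103 ± 0.0786 CPM in GFP livers (SD, n = 8 each), and the groups overlapped. An exact two-sided permutation test of the CPM values gave p = 0.0751, and edgeR without a filter on low counts gave -1.13 as its log2 fold change (SE 0.732, adjusted p = 0.393). Without arcA 6 or GFP 2, the permutation p was 0.0476 and 0.0196. With any other library left out it stayed above 0.05, up to 0.15 without GFP 4 and without GFP 5. In the full data Ccl7 passed in neither test, at few counts.

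Ccl6 and Ccl9 are neighbours on the minus strand of chromosome 11, at 83587882 to 83593087 and 83572919 to 83578636 (GRCm38), with 9245 bases between them. Both encode chemokines that attract myeloid cells in mice, act through CCR1 and are made by macrophages and other myeloid cells. The 250 bases before each start (RefSeq table, GRCm38.p6, minus strand, 5′ to 3′) are shown because these adjacent genes behaved differently here. They lie at chr11:83593088-83593337 for Ccl6 and at chr11:83578637-83578886 for Ccl9. Capitals mark runs of at least 12 bases that also occur in the other sequence, 25 bases of the Ccl6 and 19 of the Ccl9 sequence.
Ccl6: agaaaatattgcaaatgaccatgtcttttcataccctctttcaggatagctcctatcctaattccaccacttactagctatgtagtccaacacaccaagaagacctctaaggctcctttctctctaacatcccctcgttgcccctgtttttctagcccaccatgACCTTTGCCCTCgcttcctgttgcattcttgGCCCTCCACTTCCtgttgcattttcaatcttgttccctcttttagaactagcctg
Ccl9: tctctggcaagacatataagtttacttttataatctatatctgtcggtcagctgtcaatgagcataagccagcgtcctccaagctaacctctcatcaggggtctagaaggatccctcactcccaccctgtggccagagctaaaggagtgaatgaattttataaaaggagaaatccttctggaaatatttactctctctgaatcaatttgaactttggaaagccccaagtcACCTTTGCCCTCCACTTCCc

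Ccl6 had 1.31 CPM at the lowest, 1.74 at the median and 3.52 at the highest in arcA livers, against 3.28, 4.35 and 6.19 CPM in GFP livers. It fell by 1.12 (SE 0.184, edgeR adjusted p = 0.000666), 2.17-fold. Only arcA 6 reached the GFP range, just above GFP 3, and the other 7 arcA livers were below every GFP liver. Ccl9 was the most abundant of the 10 genes, with 56.5 CPM at the lowest, 60.01 at the median and 78.8 at the highest in arcA livers, against 48.8, 63.1 and 79.6 CPM in GFP livers. The groups covered nearly the same range. Its log2 fold change was -0.030 (SE 0.0966, edgeR adjusted p = 0.895), and it ranged from -0.14 to 0.013 over all alternatives, turning positive without GFP 3, without GFP 7 and without GFP 2, 3 and 5.

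The difference between the neighbours was tested directly. In each liver, log2 CPM of Ccl6 minus that of Ccl9 was -4.98 ± 0.477 in arcA and -3.85 ± 0.332 in GFP livers (SD, n = 8 each), a difference of -1.13 between groups. An exact two-sided permutation test gave p = 0.000466 (adjusted p = 0.000932 over the 2 gene pairs compared this way, a choice made after the values were seen). Kupffer cells are a known source of Ccl9 and Ccl6. Of 14 listed Kupffer markers, 6 were lower and 0 higher in arcA livers, at a median log2 fold change of -0.67. Cd68, C1qc and Clec4f lost the call without GFP 2, 3 and 5 (edgeR adjusted p = 0.0579, 0.0619 and 0.0772). Without GFP 7, Cd68 and Clec4f lost it as well (adjusted p = 0.0522 and 0.0599). The summed level of the 14 markers was 178 to 494 CPM in arcA and 345 to 548 CPM in GFP livers. The liver with the highest Ccl9 of its group had the highest Kupffer sum among arcA livers (arcA 3) and the lowest among GFP livers (GFP 3). The part of Kupffer cells in these values was not tested.

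**Figure D2:**
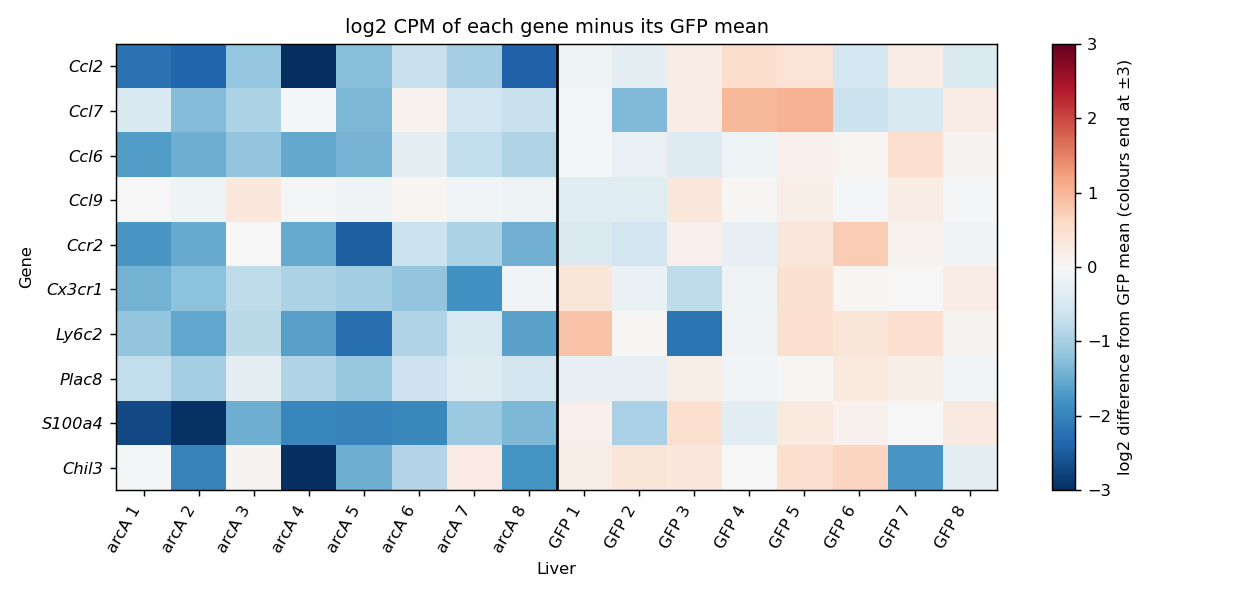
log2 CPM of each gene (rows) in each liver (columns, arcA 1 to 8 and then GFP 1 to 8), less the mean of the GFP livers, with blue below and red above that mean. The Ccl9 row stays pale in both groups, the Ccl2 and S100a4 rows are blue in all 8 arcA livers, and among GFP livers the darkest blue cells are GFP 3 for Ly6c2, GFP 7 for Chil3 and GFP 2 for Ccl7.

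The receptors follow. Ccr2, the receptor for CCL2 and CCL7 that lets monocytes leave the bone marrow, lies on chromosome 9 (124101950 to 124113557, plus strand, GRCm38). It had 0.190 CPM at the lowest, 0.442 at the median and 1.30 at the highest in arcA livers, against 0.858, 1.31 and 2.24 CPM in GFP livers. A single liver, arcA 3, lay within the GFP range, and the other 7 arcA livers were below every GFP liver. Ccr2 fell by 1.22 (SE 0.298, edgeR adjusted p = 0.0115), 2.33-fold.

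Cx3cr1, the receptor for the membrane-bound chemokine CX3CL1, lies on chromosome 9 as well (119901616 to 120069879, minus strand, GRCm38). It had 0.629 CPM at the lowest, 1.04 at the median and 2.18 at the highest in arcA livers, against 1.32, 2.39 and 3.16 CPM in GFP livers. It fell by 1.05 (SE 0.217, edgeR adjusted p = 0.00397), 2.06-fold. All arcA livers lay below the GFP median, 6 of them also below the lowest GFP liver. The exceptions were arcA 8 and arcA 3, while GFP 3 was the lowest of its group. The ligand gene Cx3cl1 had 0.480 ± 0.138 CPM in arcA and 0.801 ± 0.271 CPM in GFP livers (SD, n = 8 each), a log2 fold change of -0.74 that missed the threshold (edgeR adjusted p = 0.0629). It passed without GFP 3 and without GFP 4 (adjusted p = 0.0392 and 0.0273), with DESeq2 (adjusted p = 0.0348) and with scaling on hepatocyte markers (adjusted p = 0.0436).

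The remaining 4 genes are cell markers. Ly6c2 encodes one form of the Ly6C antigen by which mouse classical monocytes are sorted and lies on chromosome 15 (75108158 to 75111970, minus strand, GRCm38). It had 0.136 CPM at the lowest, 0.307 at the median and 0.606 at the highest in arcA livers, against 0.120, 1.03 and 1.61 CPM in GFP livers. The lowest liver of all was GFP 3, with 3 counts, and the other 7 GFP livers were above every arcA liver. Ly6c2 fell by 1.52 (SE 0.340, edgeR adjusted p = 0.00671), 2.86-fold. Without GFP 3 the log2 fold change was -1.68 (adjusted p = 0.000514).

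Ly6c1, its close paralog, is known mainly from endothelial cells and some lymphocytes and lies on the same strand with 59327 bases between the genes. It had 1.19 ± 0.383 CPM in arcA and 1.24 ± 0.221 CPM in GFP livers (SD, n = 8 each), with a log2 fold change of -0.059 (edgeR adjusted p = 0.897). Its sign was positive without arcA 8 and without arcA 3 and 8. The log2 CPM of Ly6c2 minus that of Ly6c1 was -1.68 ± 0.602 in arcA and -0.483 ± 0.967 in GFP livers (SD, n = 8 each), a difference of -1.20 (exact two-sided permutation test, p = 0.0129, adjusted p = 0.0129 over the 2 pairs). The 250 bases before the first listed start of each are shown because the fold changes of the paralogs differed. Capitals again mark runs of at least 12 bases that both hold, 47 bases in each. The sequences lie at chr15:75111972-75112221 for Ly6c2 and chr15:75048838-75049087 for Ly6c1 (RefSeq table, GRCm38.p6, minus strand). Because the transcripts are alike, reads may have been split between these paralogs with error.
Ly6c2: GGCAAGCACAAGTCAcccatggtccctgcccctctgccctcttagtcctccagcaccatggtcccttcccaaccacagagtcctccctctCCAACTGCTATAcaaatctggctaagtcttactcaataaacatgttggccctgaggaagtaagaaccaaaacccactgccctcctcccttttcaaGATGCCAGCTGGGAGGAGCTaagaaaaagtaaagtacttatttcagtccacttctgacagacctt
Ly6c1: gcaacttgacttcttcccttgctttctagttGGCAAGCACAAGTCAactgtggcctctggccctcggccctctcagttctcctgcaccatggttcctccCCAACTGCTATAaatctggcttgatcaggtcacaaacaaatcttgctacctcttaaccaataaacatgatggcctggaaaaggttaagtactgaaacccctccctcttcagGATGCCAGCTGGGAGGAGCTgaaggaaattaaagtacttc

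The RefSeq table held promoters for 8 of the 10 genes. Both strands of the 250 bases before each start were searched for 4 motifs, none of which contains another: the PU.1 core GAGGAAGT, AP-1 as TGANTCA, C/EBP as TTNNGCAA and the palindromic NF-kB motif. PU.1 is the factor encoded by Spi1 that myeloid cells depend on. The PU.1 core occurred in both listed Ly6c2 windows, at position -108 from the first start, in none of the other 7 genes, and in 1 of the 2 listed windows of Ly6c1. Of 32817 promoter windows of this length in the table, 2.44% held it. The AP-1 motif was present for Ccl9 (6.75% of all windows), and the C/EBP motif for the second listed start of Plac8 (9.57% of all windows). The NF-kB motif was in none of them (0.283% of all windows). These are matches of letters, not shown binding sites.

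Plac8, a small cysteine-rich protein gene expressed in monocytes, granulocytes and some lymphocytes, lies on chromosome 5 (100553725 to 100572245, minus strand, GRCm38). It had 2.28 CPM at the lowest, 3.15 at the median and 4.10 at the highest in arcA livers, against 4.23, 4.97 and 6.21 CPM in GFP livers. Every arcA liver was below every GFP liver. The change was nonetheless the smallest among the 7 genes that passed: Plac8 fell by 0.70 (SE 0.126, edgeR adjusted p = 0.00142), 1.62-fold. Its spread was also the smallest of the 7, with a coefficient of variation of 20.7% in arcA and 14.1% in GFP livers.

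S100a4 encodes a calcium-binding protein of motile cells, among them monocytes, activated T cells and fibroblasts, and lies on chromosome 3 (90603771 to 90606045, plus strand, GRCm38). It had 0.113 CPM at the lowest, 0.295 at the median and 0.559 at the highest in arcA livers, against 0.609, 1.397 and 1.76 CPM in GFP livers. The groups did not overlap, and GFP 2 was nearest to the arcA range. S100a4 had the largest change of the 10 genes: it fell by 1.99 (SE 0.279, edgeR adjusted p = 0.000156), 3.96-fold, over 109 counts in the arcA group and 408 in the GFP group.

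Chil3 encodes the chitinase-like protein Ym1, made in mice by neutrophils, some monocytes and alternatively activated macrophages, and lies on chromosome 3 as well (106147554 to 106167564, minus strand, GRCm38). It had 0 CPM at the lowest, 0.153 at the median and 0.489 at the highest in arcA livers, against 0.1001, 0.475 and 0.658 CPM in GFP livers. The arcA livers spread widely, with a coefficient of variation of 86.1%, and 5 of them lay within the GFP range. GFP 7 was well below the other GFP livers. The 0 was arcA 4, where 0 counts allow up to 0.0678 CPM on the same terms as for Ccl7. Chil3 had -0.98 as its log2 fold change (SE 0.493, edgeR adjusted p = 0.226), and its adjusted p was 0.127 to 0.352 when 1 library was left out. Its neighbour and close paralog Chil4 had 1 count over the arcA group and 2 over the GFP group. Chil1, a more distant relative, had 6.22 ± 6.45 CPM in arcA and 3.17 ± 1.29 CPM in GFP livers (SD, n = 8 each) and did not pass (adjusted p = 0.271).

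**Figure D3:**
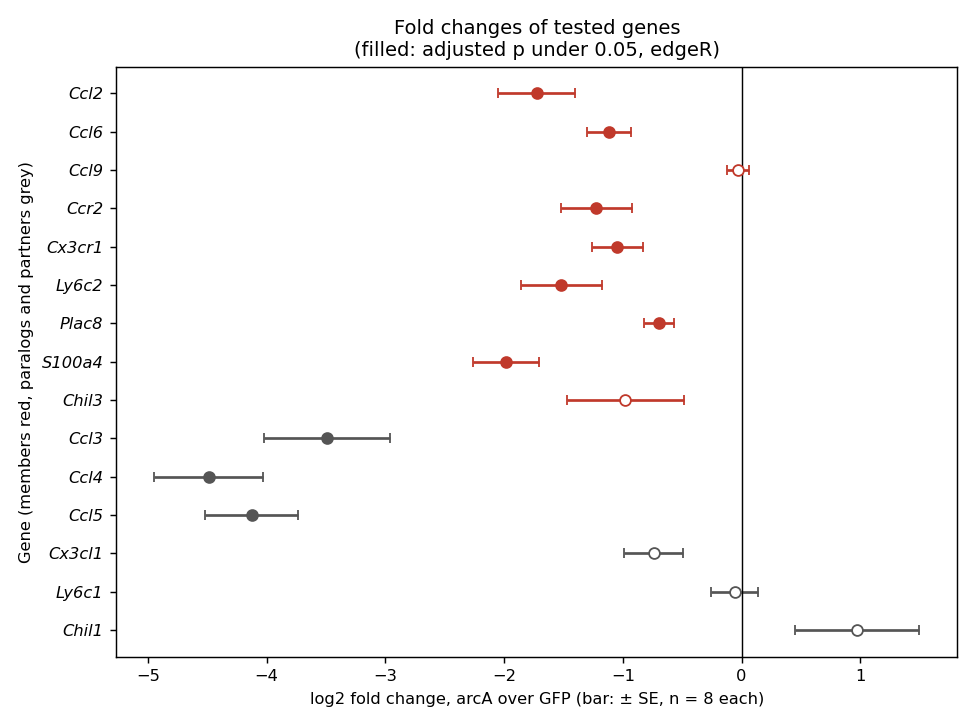
log2 fold change of arcA over GFP (x axis) with its SE (n = 8 livers a group), in red for the 9 tested genes described here and in grey for paralogs and other chemokine genes named in the text. Filled points have an edgeR adjusted p under 0.05. Ccl9 and Ly6c1 lie next to 0, S100a4 is the red point farthest to the left, and Ccl3, Ccl4 and Ccl5 lie farther left still.

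Levels of different genes were compared per kilobase of annotated exon (union of GENCODE M21 exons). In arcA livers the order was Ccl9 (20.5 ± 2.36 CPM per kb), Plac8 (1.97 ± 0.409), Ccl6 (1.13 ± 0.417), S100a4 (0.554 ± 0.265), Ccl2 (0.304 ± 0.190), Cx3cr1 (0.255 ± 0.105), Chil3 (0.134 ± 0.115), Ly6c2 (0.127 ± 0.0557), Ccr2 (0.0854 ± 0.0516) and Ccl7 (0.0551 ± 0.0459). In GFP livers it was Ccl9 (21.0 ± 3.66 CPM per kb), Plac8 (3.21 ± 0.453), Ccl6 (2.45 ± 0.492), S100a4 (2.24 ± 0.614), Ccl2 (1.01 ± 0.285), Cx3cr1 (0.529 ± 0.132), Ly6c2 (0.361 ± 0.159), Chil3 (0.270 ± 0.105), Ccr2 (0.201 ± 0.0651) and Ccl7 (0.129 ± 0.0981), all as mean ± SD with n = 8. Ccl9 stood far above the other 9 genes in both groups. Neighbours in the order differed by less than the larger of their SDs for S100a4, Ccl2 and Cx3cr1 in arcA livers, for Ccl6 and S100a4 in GFP livers, and for the last 4 genes in either group.

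Across livers of the same group the genes moved together only in part. With log2 CPM centred within each group, the 36 pairs among the 9 tested genes had Pearson correlations from -0.296 to 0.848 over the 16 livers, with a median of 0.307, and 31 of the 36 were above 0. These are descriptions, since the livers share library depth and scaling, and the sparse counts of several genes add noise. The closest pair was Ccr2 and Plac8 (Pearson r = 0.848, Spearman rho = 0.835 over 16 livers), at r = 0.825 within the 8 arcA and 0.918 within the 8 GFP livers, and 0.745 without arcA 3 and arcA 5, the livers farthest from the median of Ccr2. By the same measure over all tested genes, the patterns most like Ccr2 were those of Psmb10, Ly86 and Rasgrp1 (r = 0.915, 0.895 and 0.893). For Ly6c2 they were Rnpep, Trmt112 and Ddx54 (0.891, 0.858 and 0.838), for Ccl2 Gzma, Parp3 and Pex10 (0.810, 0.808 and 0.801), and for Chil3 Gm14650, Tctex1d2 and Gm6175 (0.843, 0.812 and 0.797). Of these 12 genes, Ly86, Rasgrp1 and Gzma also passed the test between groups, all lower in arcA livers.

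The wider chemokine family showed falls in other C-C ligands too. Besides the 4 ligands above, 16 further C-C chemokine genes were listed and 6 were tested, of which 3 were lower and 0 higher in arcA livers. These were Ccl3, Ccl4 and Ccl5, inflammatory chemokines that T, NK and myeloid cells make. Ccl3 and Ccl4 entered the test through their GFP counts. They had 26 and 14 counts over the arcA group and 307 and 326 over the GFP group. Ccl5 had 0.683 ± 0.652 CPM in arcA and 12.01 ± 4.51 CPM in GFP livers (SD, n = 8 each), a log2 fold change of -4.13, and Ccl3 and Ccl4 had -3.49 and -4.49 (edgeR adjusted p at most 0.000408). The other CCR2 ligands Ccl8 and Ccl12 were below the filter. Ccl8 had 16 counts over the arcA group and 92 over the GFP group, and Ccl12 had 2 and 10. Among 13 other C-C and atypical chemokine receptors, 7 were tested and 2 were lower, among them Ccrl2, with 0 higher. Ccrl2, a chemerin-binding receptor, fell by 0.90 (adjusted p = 0.0266), but the call was lost without arcA 2, arcA 5, GFP 6 or GFP 7, with 0.0566 as the highest adjusted p, and when GFP 2, 3 and 5 were removed together. Ccr1, the receptor of CCL6 and CCL9, was below the filter, with 22 counts over the arcA group and 89 over the GFP group.

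Genes for monocyte growth, adhesion and entry fell in part. Of 22 listed, 20 were tested, 11 were lower and 0 higher in arcA livers, at a median of -0.62. Vcam1, the endothelial ligand of the integrin VLA-4, fell by 1.62 (SE 0.176, edgeR adjusted p = 1.52e-05), with 2.99 ± 0.903 CPM in arcA and 9.18 ± 2.30 CPM in GFP livers (SD, n = 8 each). Cd44 (the hyaluronan receptor), Selplg (the P-selectin ligand) and Icam1 (the ligand of beta-2 integrins) were lower too, with log2 fold changes of -0.998, -1.401 and -0.852. All 8 arcA livers lay below the GFP median for each of these 4 genes. Vcam1, Icam1 and Cd44 are also expressed by endothelial, stellate or bile duct cells.

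Wider marker lists of the monocyte subsets were mixed. Of 16 classical monocyte genes, 12 were tested, 4 were lower and 0 higher in arcA livers, at a median of -0.41. Lyz2, lysozyme of macrophages and monocytes, fell by 0.86 (edgeR adjusted p = 0.00823) and Ms4a6c fell by 1.44 (adjusted p = 0.0255, or 0.0503 without arcA 1). Fcgr1, the high-affinity IgG receptor, fell by 0.91. Leaving out single libraries ended the Fcgr1 call 8 times in 16 (highest adjusted p 0.0865), and it was also lost when GFP 2, 3 and 5 were removed. Fn1, Hp, Mgst1 and Msrb1 on the same list are abundant in hepatocytes, and none of these 4 passed. Of 12 non-classical monocyte genes, all tested, 5 were lower and 0 higher, at a median of -0.44: Spn by 2.09 (CD43, a sialoprotein also on T cells), Ear2 by 1.41, Fcgr4 by 0.80, Pou2f2 by 0.79 and the integrin gene Itgal by 0.79. Of 10 transcription factors of the lineage, 3 were lower and 0 higher, at a median of -0.034: Irf8 by 1.03, Spi1 by 1.01 and Zeb2 by 0.63. Klf4 and Nr4a1, also on this list, did not pass (log2 fold changes 0.12 and 0.84, edgeR adjusted p = 0.792 and 0.566).

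**Figure D4:**
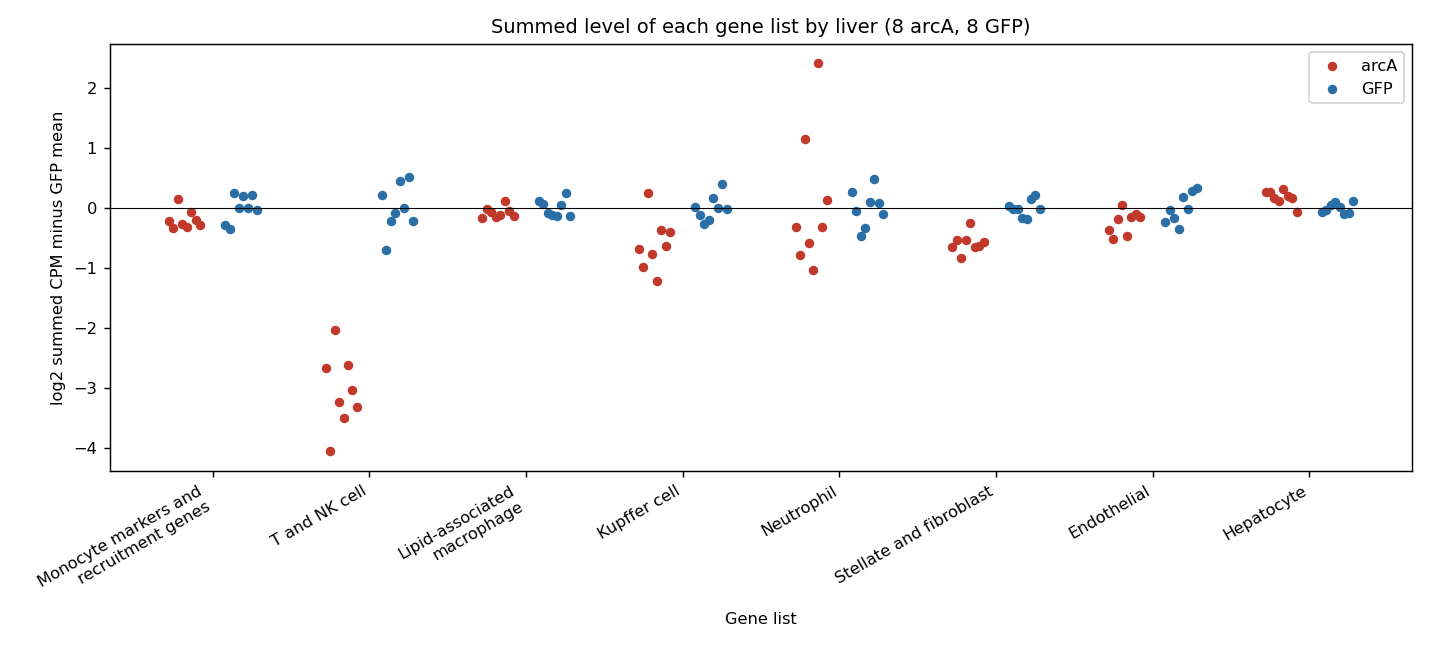
Summed CPM of 8 gene lists in each liver (y axis, log2, less the mean of the GFP livers), with the 8 arcA livers in red and the 8 GFP livers in blue. The T and NK cell sums of the arcA livers lie below every GFP liver, the sum of the 10 genes described here overlaps because Ccl9 makes up most of it, and 2 arcA livers stand above the rest in the neutrophil list.

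Markers of other cells moved in the same comparison. Of 19 T and NK cell genes, 13 were tested and all 13 were lower in arcA livers, at a median of -2.81. Several entered the test through their GFP counts: Cd8a and Cd8b1 had 20 and 28 counts over the arcA group, against 604 and 402. A listed gene that was low in GFP livers could not enter in this way, so the filter partly fixed the share of lower genes. The summed level of the list was 1.30 to 5.24 CPM in arcA and 13.3 to 30.9 CPM in GFP livers. The NK cell genes Ncr1 and Klrb1c were below the filter and not lower. They had 20 and 19 counts over the arcA group and 13 and 10 over the GFP group. Trac, Cd2, Cd5 and Prf1, also below the filter, had fewer counts in the arcA group. Gzma, which encodes a cytotoxic granule protease, had 0.216 ± 0.181 CPM in arcA and 4.17 ± 1.20 CPM in GFP livers (SD, n = 8 each). Of 10 B and plasma cell genes, 6 were tested, 5 were lower and 0 higher, with sums of 1.96 to 4.05 CPM in arcA and 52.6 to 304 CPM in GFP livers. Of 10 endothelial genes, 1 was lower and 0 higher. Of 12 dendritic cell and MHC class II genes, 8 were tested, 4 were lower and 0 higher. The lower genes were H2-Ab1, H2-Aa, Cd74 and Itgax, the last also on the list of lipid-associated macrophages. Zbtb46, Clec9a, Xcr1 and Batf3 did not pass (log2 fold changes -0.14, -0.10, -0.36 and -0.94, edgeR adjusted p = 0.572, 0.831, 0.52 and 0.0713). The sums were 36.02 to 183 CPM in arcA and 170 to 378 CPM in GFP livers, most of it from H2-Ab1, H2-Aa and Cd74. Of 14 genes of lipid-associated macrophages, which arise from monocytes, 7 were lower and 0 higher. Among the 7, Mmp12 fell by 4.46, Gpnmb by 2.75, Lgals3 by 1.99 and Cd63 by 1.38. Spp1, Fabp5 and Cd9 did not pass (log2 fold changes 0.28, 0.23 and -0.36, edgeR adjusted p = 0.447, 0.66 and 0.17). The sums of the list overlapped, at 1495 to 1812 CPM in arcA and 1530 to 2000 CPM in GFP livers. Ctsd, Ctsl, Plin2 and Cd36 made up most of these sums, and none of them passed (mean 423, 386, 443 and 301 CPM in arcA livers). Of 12 stellate cell and fibroblast genes, 8 were lower and 0 higher, with sums of 191 to 286 CPM in arcA and 301 to 395 CPM in GFP livers. Hepatocyte genes numbered 14, with 0 lower and 2 higher. The part of these cells in the lower levels of Ly6c2, Plac8, S100a4, Cx3cr1, Ccr2 and Ccl2 was not tested.

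Few neutrophil genes were countable. Of 14 neutrophil genes, 4 were tested, 0 were lower and 1 was higher, Mmp9, which rose by 1.51 (edgeR adjusted p = 0.0166) and is also made by other cells. Its call was lost with limma voom, with surrogate variables and without arcA 3 and 8 (adjusted p up to 0.0729). The neutrophil sum was 2.28 to 24.8 CPM in arcA and 3.40 to 6.56 CPM in GFP livers, and arcA 6 and arcA 3 held 24.8 and 10.4 CPM. Ly6g, the defining neutrophil antigen gene, had 7 counts over the arcA group and 5 over the GFP group. Of 11 eosinophil, mast cell and basophil genes, only Ccr3 had enough counts to be tested, and it did not pass (adjusted p = 0.275).

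The size of each change depended little on single libraries. When each of the 16 libraries was left out in turn, the 7 genes passed in every fit, and their log2 fold changes ranged from -1.96 to -1.58 for Ccl2, -1.29 to -1.03 for Ccl6, -1.51 to -1.08 for Ccr2, -1.25 to -0.95 for Cx3cr1, -1.68 to -1.38 for Ly6c2, -0.76 to -0.64 for Plac8 and -2.14 to -1.87 for S100a4. The most negative value of Ccr2 came without arcA 3, the liver inside the GFP range. Chil3 ranged from -1.26 to -0.78 and passed in none of these fits.

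**Figure D5:**
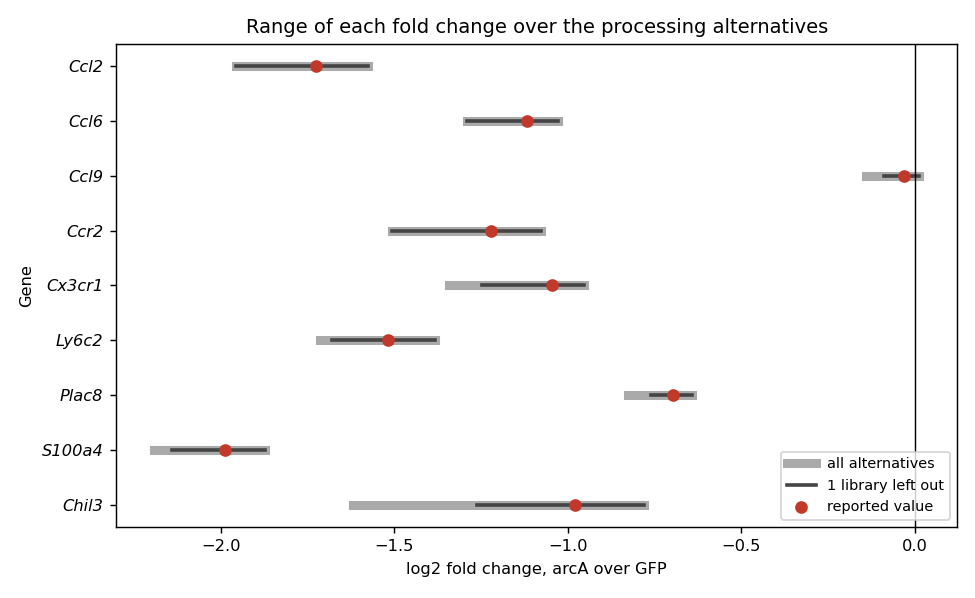
Range of the log2 fold change of arcA over GFP (x axis) for each tested gene, over all alternatives (light bar) and over the 16 fits without 1 library (dark line), with the reported value as a red point. The bar of Ccl9 alone reaches 0, and the light bar of Chil3 is the widest.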

How the data were processed

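Liver RNA of 8 arcA and 8 GFP mice was sequenced, and groups were taken from the sample titles. The deposited table holds unnormalised read counts by gene symbol, made with STAR 2.5.1a and featureCounts 1.4.6-p5 on GRCm38, per the submitters' processing notes. Extraction used Trizol and libraries oligo-dT, per the labels' protocols. Annotation release, strand setting and mate counting were not given in the sources used here. Overlapping and antisense genes therefore cannot be told apart. Among counts from 1 to 20, 69.8% were even, as separate counting of mates would give. Of 40757 lines, 348 exact copies were removed and 85 repeated symbols were summed.

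The test was edgeR 4.0.16 (R 4.3.3; filterByExpr, TMM, robust quasi-likelihood fit, group as only term, threshold 0.05) over all 14476 genes that passed the filter. A gene could pass the filter on its counts in either group alone. The share of lower genes among the tested genes of a list is therefore partly set by the filter. SEs were derived from the fold change and F. CPM used TMM-scaled library sizes, and log2 CPM a prior count of 2. For comparisons of 2 genes and for Ccl7, exact two-sided permutation tests over livers were used. The mice were littermates per the labels, the number of litters is not stated, and p-values measure the spread between these livers. Within groups the chi-square per gene between libraries was 20.1 to 511 over 56 pairs, so each library counted as 1 sample. Reads carry no molecular identifiers, and floors cover counting error only. If mates were counted separately, the floors given for 0 counts are too low.

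All 10 genes were named whatever their p, with 12 paralogs and partners, and up to 4 genes with the smallest p of each list past the threshold. Itgal, Klf4, Hp, Fn1, Mgst1, Msrb1, Ly6g and Ccr3 were named after their values were seen. The same holds for Ncr1, Klrb1c, Trac, Cd2, Cd5, Prf1, Ctsd, Ctsl, Plin2, Cd36, Zbtb46, Clec9a, Xcr1, Batf3, Nr4a1, Spp1, Fabp5 and Cd9. The genes, lists, motifs and alternatives were chosen with earlier results of these data known. Alternatives were other scalings and filters, DESeq2 1.42.0, limma 3.58.1 (voom), sva 3.50.0, halved counts, a replicate block, a minimum fold of 1.5, no Gm42418 and Lars2, and libraries left out. The test was checked on simulated counts. Coordinates and exon lengths are from GENCODE M21 and promoters from the RefSeq table, matched by symbol. Some genes of the lists are counted but not reported by name here.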

Additional observations from a re-analysis of the deposited data

Results flagged for a closer look

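In 20 groups of 8 livers (10 genes in 2 groups), 2 held a liver set apart from the rest by a gap larger than Dixon's 95% criterion, where about 1 in 20 groups is marked by chance. For Ccl9 in arcA livers the highest was arcA 3, at 78.8 CPM. For Cx3cr1 in arcA livers the highest was arcA 8, at 2.18 CPM. Without arcA 3 the log2 fold change of Ccl9 was -0.084 and did not pass (edgeR adjusted p = 0.639), and without arcA 8 that of Cx3cr1 was -1.25 and passed (adjusted p = 0.000425).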

How the results depend on the processing

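Across 31 alternatives, the 7 lower genes kept their direction, and the count of 7 was the same except with a filter of 1 CPM in 8 libraries (4, since Ccl2, Ly6c2 and S100a4 are not tested there) and a minimum fold of 1.5 (2, Ccl2 and S100a4). The count without 1 library was 7 to 7 lower and 0 to 0 higher. Over all genes, 617 higher became 253 with library size alone, 45 with hepatocyte marker scaling, 407 with the 1 CPM filter, 1 with the minimum fold and 369 without GFP 2, 3 and 5, and ranged from 389 (without GFP 2) to 638 without 1 library. The 951 lower became 122 with the minimum fold and ranged from 731 to 1046 without 1 library. Ccl9 turned to 0.0053 without GFP 2, 3 and 5, and ranged from -0.088 to 0.013 without 1 library. Ly6c1 turned to 0.089 and Chil1 to -0.030 without arcA 3 and 8, and Ly6c1 ranged from -0.19 to 0.046 without 1 library. The cause was not tested. Replicate numbers are shared between groups, but same-numbered livers did not deviate together (correlations of -0.047 to 0.164, over 0.1 in 2 of 8 pairs, and 1 of 8 arcA livers closest to its own number). With the replicate block, 876 genes were lower and 592 higher, the 7 genes passed, and Mmp9, C1qc and Clec4f lost the call (adjusted p = 0.0544, 0.0522 and 0.0603). Counts were under 30 in every arcA library for Ccl2, Ly6c2, S100a4 and Chil3, and in every library of both groups for Ccl7, which limits these genes. Low counts also limit Ccr2 in arcA livers (7 to 55 per library) and Chil3 in GFP livers (6 to 30 per library).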
